A study of Mus musculus with 8 samples.

Results

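Hedgehog signalling was followed through 9 genes of its reception and response in mammary tumours of MMTV-PyMT mice: the co-receptor genes Boc, Cdon and Gas1, the receptor gene Ptch1, the signal transducer gene Smo, the transcription factor genes Gli1, Gli2 and Gli3, and Hhip, which encodes a secreted and membrane-bound ligand trap. Every probe whose platform annotation names 1 gene, and that gene a member, was taken, which gave 24 of the 45037 probes tested. Boc, Gas1, Ptch1, Smo and Gli3 have 3 probes each, Cdon and Gli2 have 2, Gli1 has 1 and Hhip has 4.

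The 8 samples came from female FVB/N-Tg(MMTV-PyVT)634Mul/J mice, in which the mouse mammary tumour virus promoter drives the polyoma virus middle T antigen in mammary epithelium, so that tumours arise there. Vehicle was given to the mice of 4 samples, and SKI-606, or bosutinib, which blocks the Src and Abl kinases, was given by oral gavage at 100 mg/kg to those of the other 4, called treated tumours here. Both groups carry the transgene, and no group without a tumour was analysed here. The labels used here give neither age nor length of treatment. Each sample was read on 1 Affymetrix array, and the number of arrays limits the precision of all values. The labels describe RNA of each mouse without listing the animals, so the p-values measure the spread between these samples, which may in part be technical.

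In the hedgehog pathway, a secreted ligand (Sonic, Indian or Desert hedgehog) binds Ptch1 together with one of the co-receptors Boc, Cdon or Gas1. Binding relieves the block that Ptch1 holds on Smo, and Smo, in the primary cilium, turns the Gli factors towards activation. Gli1, Ptch1 and Hhip are themselves transcribed in response, so that they serve as readouts of the pathway and as feedback. In the mammary gland most hedgehog-responsive cells described lie in the stroma, while in skin the pathway drives growth of the hair follicle.

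Proximal promoters, taken here at 1 annotated start per gene, were compared in base content and searched for the letters that Gli factors recognise. A gene can have other starts, which are not shown, so the values describe this window only. RefSeq promoter entries of GRCm38.p6 were found for 7 of the 9 genes, all but Boc and Gli1. The 250 bases before the annotated start are shown 5′ to 3′ on the gene's strand for Cdon, a co-receptor gene whose measured probe separated the groups, for Ptch1, a readout of the pathway, and for Gli2, the only one of the 7 with a core match. Capitals mark that core.
Cdon, chr9:35451826-35452075, plus strand: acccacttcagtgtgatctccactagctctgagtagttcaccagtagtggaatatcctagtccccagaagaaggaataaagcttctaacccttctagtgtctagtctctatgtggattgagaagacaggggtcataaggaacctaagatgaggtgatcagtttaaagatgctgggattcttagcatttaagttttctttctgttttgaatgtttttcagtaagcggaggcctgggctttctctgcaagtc
Ptch1, chr13:63565736-63565985, minus strand: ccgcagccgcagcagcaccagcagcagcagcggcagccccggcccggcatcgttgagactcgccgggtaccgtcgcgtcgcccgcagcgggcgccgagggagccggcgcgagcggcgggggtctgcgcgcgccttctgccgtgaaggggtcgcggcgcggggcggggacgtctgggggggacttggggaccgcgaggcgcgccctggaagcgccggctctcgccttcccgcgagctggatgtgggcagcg
Gli2, chr1:119053620-119053869, minus strand: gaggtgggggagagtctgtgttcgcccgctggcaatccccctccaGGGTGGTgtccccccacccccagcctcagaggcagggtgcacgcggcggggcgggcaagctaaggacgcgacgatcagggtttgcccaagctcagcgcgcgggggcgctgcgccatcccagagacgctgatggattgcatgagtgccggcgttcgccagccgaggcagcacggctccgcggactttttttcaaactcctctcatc
The 9-letter motif GACCACCCA was searched on both strands (TGGGTGGTC on the other) and was in 0 of the 7 windows, against 0.225% of 32851 promoters. Its 7-letter core ACCACCC, searched on both strands and lying within the longer motif, was in the Gli2 window alone, and in 3.92% of all promoters. In Gli2 the core begins 205 bases before the start. A match describes letters only, and no match says only that these letters are not in this window. Over all promoters the median content of G and C was 52.4% with 6.0 CpG dinucleotides. The Cdon window had 42.8% and 1 CpG, whereas the Ptch1 window had 78.4% and 41, and the Gli2 window 67.2% and 22.

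Signals are whole-number array signals recovered from the deposited ratios and then quantile normalised, a step that gives all arrays one distribution. The median of an array was 15 to 18 before that step, and 23 in vehicle tumour 3. All fold changes are SKI-606 minus vehicle on the scale log2(signal + 16), which understates changes of dim probes, with the standard error of the limma fit over all probes and n = 4 in each group. The samples carried the tumour epithelium markers in full, with 10 of 10 markers above a median signal of 10. Krt8, a luminal keratin, had a signal of 5741 ± 302 in vehicle and 5619 ± 613 in treated tumours (SD, n = 4 each), and Krt18, its partner, 7299 ± 671 and 6784 ± 881. Vehicle tumour 3 and treated tumours 1 and 4 stood apart from the rest. Their squamous and hair keratin scores, the mean log2 value of the markers, were 8.61, 9.64 and 9.79, and no other sample exceeded 5.29. Of the 17 markers of that list on the array, 6 had a median signal under 10. Results are therefore also given without these 3 samples.

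By their measured probes, the co-receptor genes Boc and Cdon had higher signals in every treated tumour than in every vehicle tumour. Gas1, Smo and Ptch1 overlapped between the groups, and Gli1 and Gli2 were highest in 2 of the treated tumours. None of the 24 member probes passed the limma test over all probes. Their adjusted p lay between 0.519 and 0.996 (Benjamini-Hochberg), and the test called 0.0% of all 45037 probes higher and 0.0% lower. At an unadjusted p under 0.05 there were 5 of the 24 member probes, all higher (1 each of Cdon, Gli2 and Gli3 and 2 of Boc), where 4.59% of all probes were higher and 3.79% lower. In 3 member probes, 2 of Boc and 1 of Cdon, all SKI-606 values lay above all vehicle values, against 1.83% of all probes, and in 0 all lay below, against 1.86%. The median log2 fold change of the 24 probes was 0.22, and that of all probes was -0.02. The split of all probes under an unadjusted p of 0.05 leaned on the scaling, as 54.8% of them were higher after quantile normalisation, 79.6% after scaling arrays to one median and 43.4% with no normalisation. Under those 2 other scalings 7 and 4 of the member probes were higher at that p, against 7.33% and 3.72% of all probes, and 0 were lower.

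Of the 24 probes, 13 had a median signal of at least 10 and are called measured here, and 11 lay under it. Over the whole array 41.9% of probes had a median signal under 10. All values of the 11 member probes lay between 0.25 and 14.5. Their log2 fold changes ran from -0.25 to 0.33 and the smallest unadjusted p in the limma fit was 0.104. A direction cannot be read from such values. Of the 13 measured probes, 12 had a log2 fold change above 0, where 12188 of the 26159 measured probes of the array did. The medians were 0.44 in the 13 and -0.02 in the measured probes of the array. The 13 are not independent, as some read the same gene.

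**Figure D1:**
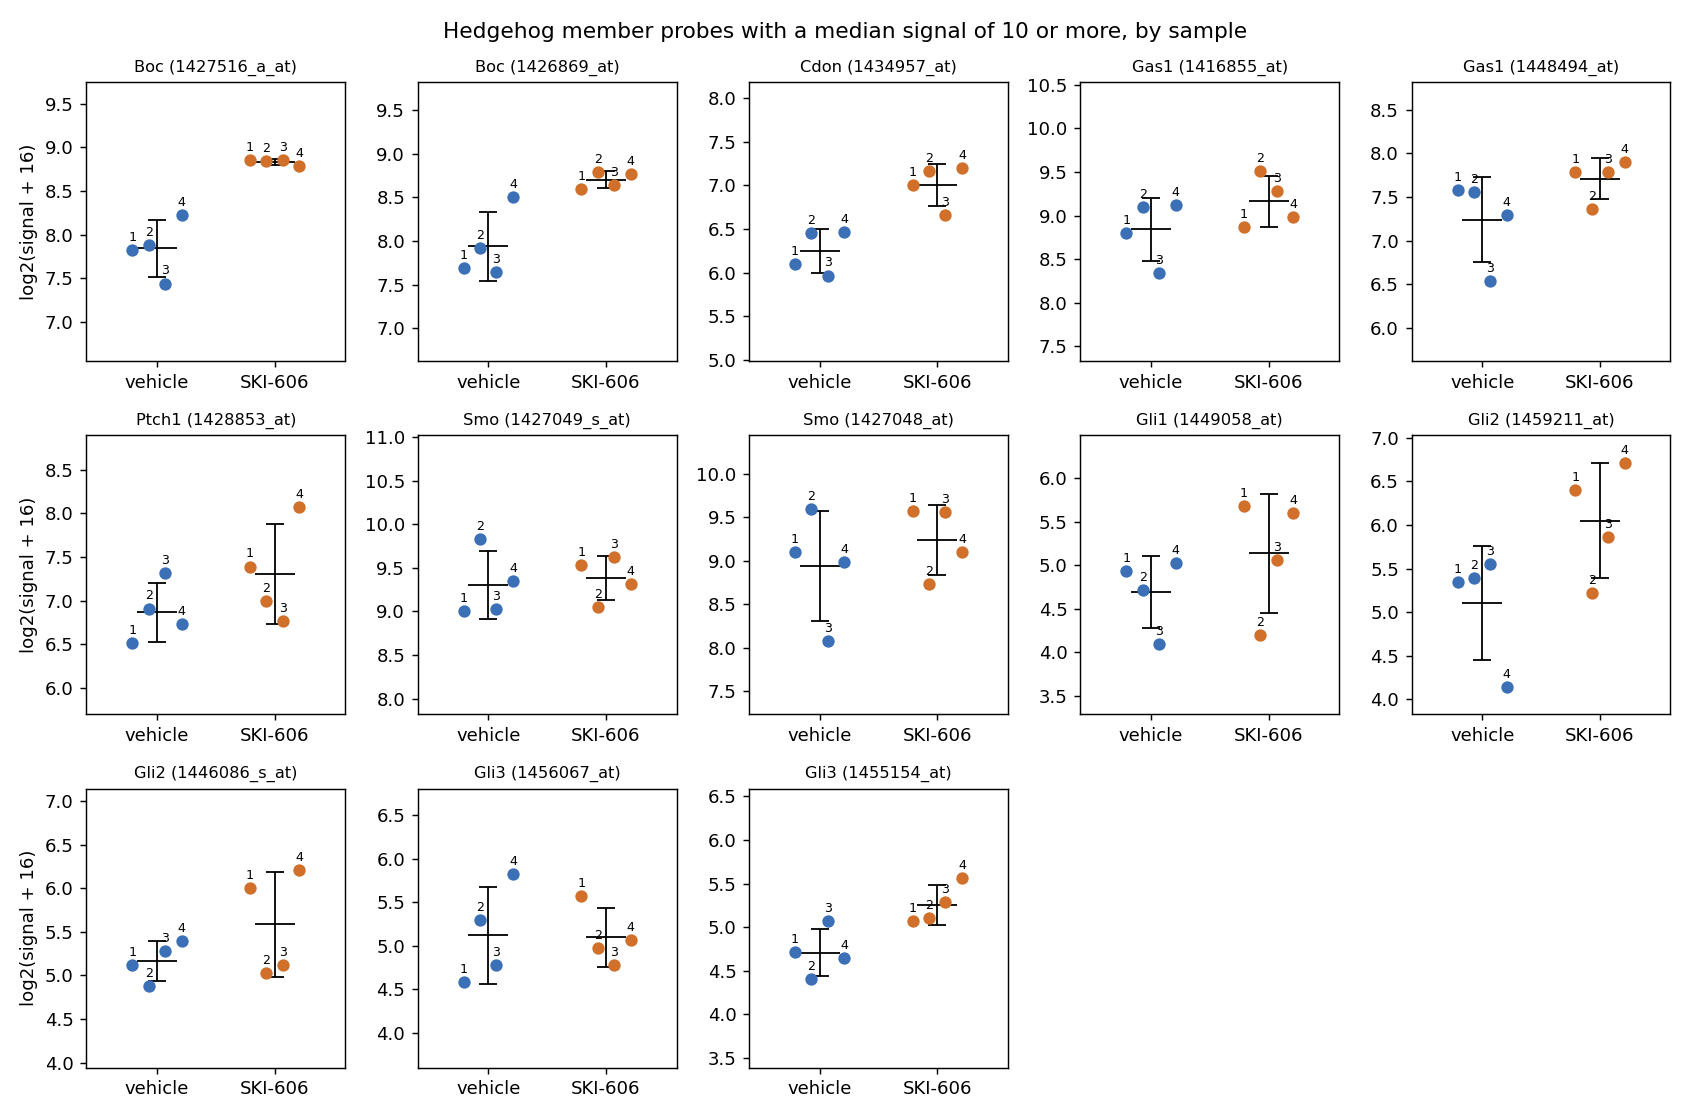
Values of the 13 measured member probes as log2(signal + 16) in 4 vehicle (blue) and 4 treated tumours (orange), with sample numbers above the points and mean ± SD as bars; every panel spans the same height on the log2 scale. The groups are apart in both Boc panels and in the Cdon panel and overlap in the others, and Gli1 and Gli2 are highest in treated tumours 1 and 4.

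Boc, a transmembrane protein of the immunoglobulin superfamily that binds hedgehog ligands beside Ptch1, had the smallest p of the 9 genes. By 1427516_a_at the signals were 211, 219, 158 and 283.5 in vehicle tumours 1 to 4 and 447, 444, 446 and 425 in treated tumours 1 to 4. The SKI-606 values lay close together and all above the vehicle values, which spread more widely. The mean signal was 218 ± 51.6 in vehicle and 440.4 ± 10.6 in treated tumours (SD, n = 4 each), a ratio of 2.02. The log2 fold change was 0.99 ± 0.17, with a 95% interval from 0.61 to 1.38. Its unadjusted p of 2.09e-04 in limma had rank 10 among all 45037 probes, and the adjusted p was 0.519.

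A different probe of Boc, 1426869_at, read 191, 225, 184 and 348 in vehicle tumours 1 to 4 and 372, 429, 384 and 421.5 in treated tumours 1 to 4. Again the groups did not overlap, although vehicle tumour 4 came near the lowest SKI-606 value. On the log2 scale the difference was 0.76 ± 0.20, with an adjusted p of 0.522 in limma. The remaining probe, 1427517_at, lay between 0.25 and 14.4 in all samples and separated nothing. Vehicle tumour 3 was the lowest and vehicle tumour 4 the highest of the vehicle group in both measured probes. Without the 3 samples of high keratin scores the log2 fold changes of these probes were 0.87 and 0.68. Leaving out 1 sample at a time kept them between 0.86 and 1.12 and between 0.66 and 0.95.

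Cdon, the closest relative of Boc and likewise a co-receptor of Ptch1, had 1 measured probe, 1434957_at. Its signals were 52.5, 71.6, 46.5 and 72.1 in vehicle tumours 1 to 4 and 112.5, 127, 85.4 and 131 in treated tumours 1 to 4. All SKI-606 values lay above all vehicle values, with treated tumour 3 the closest to them. Means were 60.7 ± 13.2 and 114 ± 20.6 (SD, n = 4 each), and the log2 fold change was 0.76 ± 0.18, with a 95% interval from 0.36 to 1.16 and an adjusted p of 0.519 in limma. It was 0.57 without the 3 samples of high keratin scores. The other probe of Cdon, 1421452_at, was at most 3.625 in any sample and is not informative.

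The difference of Boc was set against that of Cdon in the same samples. Per sample, log2 Boc minus log2 Cdon was 1.597 ± 0.17 in vehicle and 1.83 ± 0.26 in treated tumours (SD, n = 4 each), so the fold change of Boc exceeded that of Cdon by 0.23. This was within the spread, with a two-sided exact permutation p of 0.2 over all 70 assignments, of which the smallest possible is 0.0286. The test does not show that the genes moved alike. The size of the difference also depended on the constant added before log2. With a pseudocount of 4 it was 0.16 (exact permutation p = 0.429), and with 64 it was 0.35 (exact permutation p = 0.0571). With log2 of the deposited ratios it was 0.13 (exact permutation p = 0.6).

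Gas1, a lipid-anchored co-receptor that cooperates with Boc and Cdon, had 2 measured probes. By 1416855_at the signals were 430.3, 531, 309 and 543 in vehicle tumours 1 to 4 and 452, 715, 605 and 492 in treated tumours 1 to 4. Treated tumours 2 and 3 exceeded all vehicle tumours, and samples 1 and 4 lay inside the vehicle range. The log2 fold change was 0.32 ± 0.22, with a 95% interval from -0.16 to 0.81 and an adjusted p of 0.716 in limma. By 1448494_at it was 0.47 ± 0.24, with an interval from -0.08 to 1.02 and an adjusted p of 0.640. Here treated tumours 1, 3 and 4, at 205, 205 and 222, exceeded all vehicle tumours, and sample 2, at 149, did not, so the probes of Gas1 placed different samples on top. Vehicle tumour 3 was lowest by both, at 309 and 76.5. Without the 3 samples of high keratin scores the log2 fold changes were 0.39 and 0.10, and without vehicle tumour 3 alone they were 0.15 and 0.23.

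**Figure D2:**
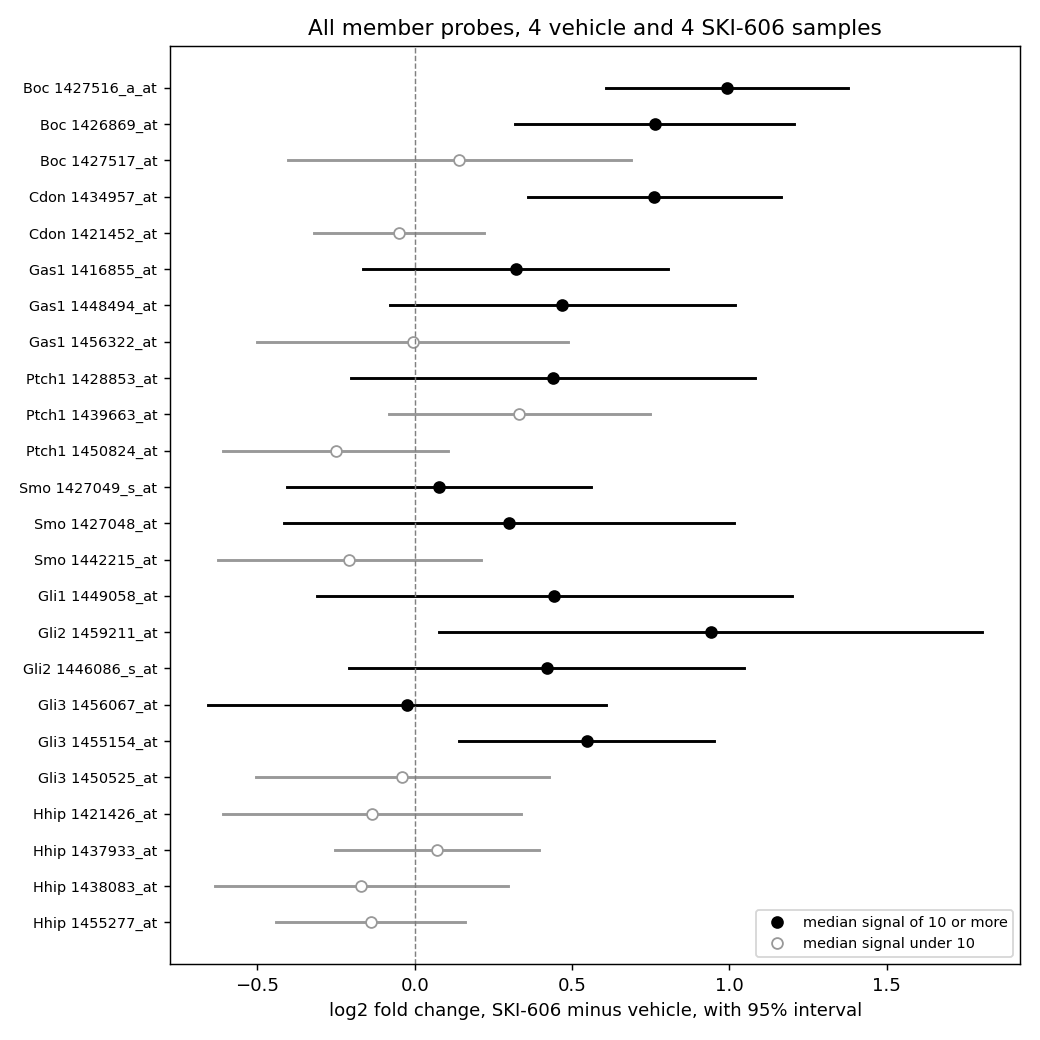
Log2 fold change (SKI-606 minus vehicle) of all 24 member probes with 95% interval from the limma fit; filled black points have a median signal of at least 10 and open grey points a lower one. The intervals of both measured Boc probes, of Cdon 1434957_at, Gli2 1459211_at and Gli3 1455154_at lie above 0, without adjustment for the number of probes.

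Ptch1, the ligand receptor and a transcriptional readout of the pathway, had 1 measured probe, 1428853_at. Signals were 75.5, 104, 143 and 90.0 in vehicle tumours 1 to 4 and 152, 111, 93.1 and 253 in treated tumours 1 to 4. Treated tumour 4 was far above the others, treated tumour 1 and vehicle tumour 3 followed, and the groups overlapped. The log2 fold change was 0.44 ± 0.29, with a 95% interval from -0.20 to 1.08 and an adjusted p of 0.707 in limma. It was 0.16 without the 3 samples of high keratin scores and 0.18 without treated tumour 4. The other 2 probes of Ptch1 were at most 11.4 in any sample, with log2 fold changes of opposite sign, 0.33 and -0.25.

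Smo, the transducer released by ligand binding, had overlapping signals in both groups. By 1427049_s_at the means were 633 ± 186 in vehicle and 658 ± 115 in treated tumours (SD, n = 4 each), and by 1427048_at 509 ± 206 and 606 ± 164. The log2 fold changes were 0.08 ± 0.22 and 0.30 ± 0.32, with 95% intervals from -0.41 to 0.56 and from -0.42 to 1.02. Every SKI-606 value of both probes lay within the vehicle range, which ran from 497 to 895 in the first and from 254 to 758 in the second. The adjusted p values in limma were 0.945 and 0.830. A log2 fold change of 0.99, that of Boc 1427516_a_at, lies outside the first interval and inside the second. Both values turned below 0 without the 3 samples of high keratin scores, at -0.057 and -0.082.

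Gli1, the Gli factor whose transcription follows pathway activity most directly, was dim. Its only probe, 1449058_at, read 14.5, 10.2, 1.12 and 16.5 in vehicle tumours 1 to 4 and 35.2, 2.38, 17.5 and 32.4 in treated tumours 1 to 4. Treated tumours 1 and 4 had the highest signals, treated tumour 3 lay just above the vehicle range, and treated tumour 2 lay near the lowest vehicle value. The log2 fold change was 0.44 ± 0.34 (95% interval -0.31 to 1.20, adjusted p = 0.746 in limma), and it turned to -0.26 without the 3 samples of high keratin scores.

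Gli2, the main activator among the Gli factors, had 2 measured probes. By 1459211_at signals were 24.6, 26.1, 31.1 and 1.62 in vehicle tumours 1 to 4 and 68.6, 21.2, 42.2 and 89.0 in treated tumours 1 to 4. As with Gli1, treated tumours 4 and 1 were highest and treated tumour 2 lay within the vehicle range, while vehicle tumour 4 was far below the rest. On the log2 scale the difference was 0.94 ± 0.38, with an adjusted p of 0.579 in limma, and 0.58 without the 3 samples of high keratin scores. Without vehicle tumour 4 it was 0.62, so this 1 value moved it by more than 1.5 times. By 1446086_s_at, where vehicle tumour 4 had a signal of 26.1, the highest of its group, the log2 fold change was 0.42 ± 0.28, and -0.061 without the 3 samples. Treated tumours 1 and 4 were again on top, at 47.9 and 57.9.

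Gli3, which acts mostly as the repressor of the pathway, had 2 measured and dim probes that gave different answers. By 1455154_at signals were 10.2, 5.25, 17.5 and 9.12 in vehicle tumours 1 to 4 and 17.5, 18.5, 23.0 and 31.5 in treated tumours 1 to 4. The lowest SKI-606 value equalled that of vehicle tumour 3, and the log2 fold change was 0.55 ± 0.18, with an adjusted p of 0.558 in limma. It was 0.61 without the 3 samples of high keratin scores. By 1456067_at it was -0.02 ± 0.28, with vehicle tumour 4 highest at 40.5. The 4 probes of Hhip lay between 0.25 and 14.5 in all samples, so the ligand trap was not detectable above the low signals of the array in either group.

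**Figure D3:**
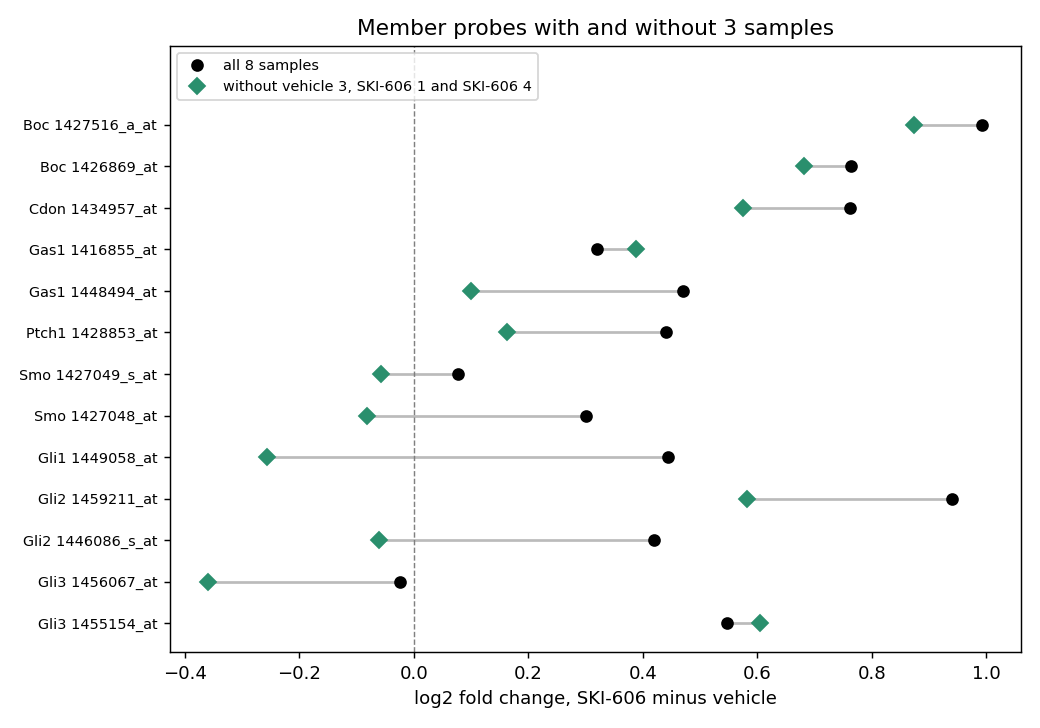
Log2 fold change (SKI-606 minus vehicle) of the 13 measured member probes over all 8 samples (circles) and without vehicle tumour 3 and treated tumours 1 and 4 (diamonds). The Boc and Cdon values stay between 0.57 and 0.87 without those samples, whereas those of Gli1, of 1 Gli2 probe and of both Smo probes fall below 0, where 1 Gli3 probe already was.

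Without the 3 samples, 4 of the 24 member probes were higher at an unadjusted p under 0.05 (both measured Boc probes, Cdon 1434957_at and Gli3 1455154_at), against 2.09% of all probes. In 5 member probes, those 4 and Gas1 1416855_at, all remaining SKI-606 values lay above all remaining vehicle values, against 7.80% of all probes. In 1, the dim Cdon 1421452_at, all lay below, against 7.86% of all probes. The comparison then has 2 treated against 3 vehicle tumours. In that limma fit the adjusted p of every member probe was 0.99988.

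Of the hedgehog ligands, Shh, which encodes Sonic hedgehog, varied most between samples. Its signals were 24.6, 28.9, 161.5 and 45.5 in vehicle tumours 1 to 4 and 376, 13.4, 8.0 and 582.5 in treated tumours 1 to 4. The 3 highest values belonged to treated tumours 4 and 1 and vehicle tumour 3, the samples of high squamous and hair keratin scores, and the other treated tumours had the lowest values of all. The log2 fold change was 0.76 ± 1.05, with a 95% interval from -1.58 to 3.11 and an adjusted p of 0.872 in limma, and it turned to -0.86 without the 3 samples. Gli1 and Gli2 were highest in treated tumours 1 and 4 as well, but Gli1 was lowest in vehicle tumour 3, at 1.12. No test was made of these patterns across samples, because the samples fall into separate clusters.

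Dhh, which encodes Desert hedgehog, had the smallest unadjusted p on the lower side among the other pathway genes, 0.0946 in the limma fit. Its mean signal was 28.6 ± 8.45 for vehicle and 17.4 ± 10.8 for treatment (SD, n = 4 each), with a log2 fold change of -0.46 ± 0.25. Ihh, which encodes Indian hedgehog, was dim in both groups, at 11.1 ± 8.56 and 16.2 ± 4.76, with a log2 fold change of 0.28 ± 0.21. Vehicle tumour 3 and treated tumour 1 had its highest signals, 23.9 and 22.6, while treated tumour 4, the highest for Shh, was the lowest treated tumour for Ihh, at 11.4.

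The other genes of the pathway (ligand processing, further co-receptors, cilium transport, and regulators of Smo and Gli) formed a list of 42, of which 38 were on the array with 1 symbol. Of these 23 had a log2 fold change above 0 and 15 below, where 8576 of all 18193 genes were above 0 and 9617 below. The median of the list was 0.06, against -0.02 over all genes. At an unadjusted p under 0.05, 5 were higher and 0 lower, where 6.07% of all genes were higher and 4.31% lower, and 0 passed the adjusted test. In 3 of them the groups did not overlap, all higher, against 2.39% of genes. Those were Adcy5, an adenylate cyclase gene, at 0.69 ± 0.18, Evc, which acts on Smo in the cilium, at 0.65 ± 0.21, and Arrb2, which encodes a beta-arrestin that helps Smo into the cilium, at 0.58 ± 0.20. Adcy5 was at 0.72 without the 3 samples of high keratin scores, while Evc and Arrb2 were at 0.26 and 0.19. On the lower side, after Dhh, stood the kinase gene Stk36 at -0.30 ± 0.17 and the cilium transport gene Ift88 at -0.31 ± 0.20. The Gli inhibitor gene Sufu was at 0.04 ± 0.19. Adjusted p values of these genes in limma lay between 0.528 and 0.974.

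Genes described as hedgehog targets in various tissues, 22 besides the members, had a median log2 fold change of 0.30. Of these 17 were above 0 and 5 below, where 8576 of all 18193 genes were above 0 and 9617 below. At an unadjusted p under 0.05, 6 were higher and 0 lower, where 6.07% of all genes were higher and 4.31% lower, and 0 passed the adjusted test in limma. Of the 22, 4 had a median signal under 10. Sox9, a transcription factor of progenitor cells, stood at 0.91 ± 0.19, with a mean signal of 219 ± 48.6 for vehicle and 424 ± 74.5 for treatment (SD, n = 4 each) and no overlap. Its adjusted p in limma was 0.519, and it was at 0.70 without the 3 samples of high keratin scores. Mycn and Osr2, both transcription factor genes and both dim, were at 0.74 ± 0.22 and 0.58 ± 0.18. Below 0, the smallest p belonged to Foxm1, a cell cycle factor, at -0.35 ± 0.20, Nkx2-2, under a median signal of 10, at -0.15 ± 0.20, and Hsd11b2 at -0.17 ± 0.41. The median of the list was -0.0016 without the 3 samples. Many of these genes have other regulators, and the list is no measure of hedgehog activity by itself.

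Fibroblasts and other stromal cells are known to express hedgehog co-receptors, and markers of such cells had higher values in the treated tumours as well. In a bulk tumour sample fewer cells of a type and less RNA per cell cannot be told apart. Of 15 fibroblast markers all 15 were above a median signal of 10. All 15 had a log2 fold change above 0, as had 8576 of all 18193 genes. The median of the markers was 0.80, and 10 of them were higher at an unadjusted p under 0.05, against 6.07% of all genes. Their median was 0.43 without the 3 samples of high keratin scores. Pdgfra, a fibroblast receptor gene, stood at 1.04 ± 0.27 and Pdgfrb at 0.87 ± 0.28, and they were at 0.54 and 0.42 without those samples. The mean log2 value of these markers, their score, ranged from 9.01 to 9.56 in vehicle and from 9.46 to 10.69 in treated tumours. In treated tumour 3 the score of 9.46 lay within the vehicle range, while its Boc signal of 446 was as high as in the other treated tumours. Log2 Boc minus this score was -1.45 ± 0.25 for vehicle and -1.29 ± 0.53 for treatment (SD, n = 4 each). The difference between the groups, 0.16, was within the spread, with a two-sided exact permutation p of 0.657. The test does not show that Boc and these markers moved alike. The difference turned to -0.062 without treated tumour 3, and it was 0.49 without the 3 samples of high keratin scores.

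**Figure D4:**
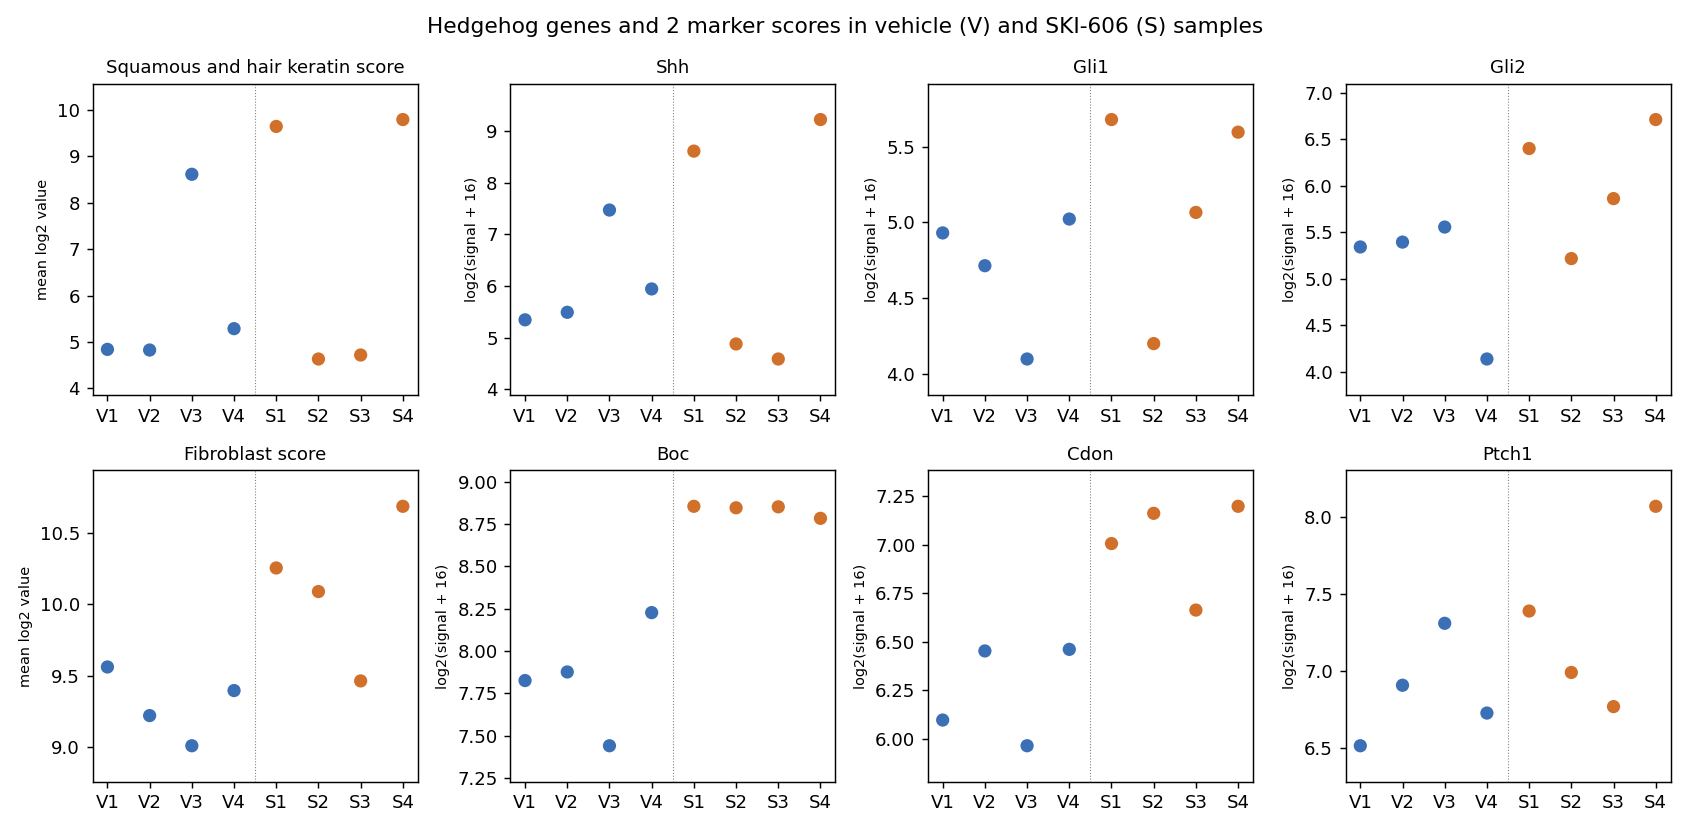
Squamous and hair keratin score, Shh, Gli1, Gli2, fibroblast score, Boc, Cdon and Ptch1 in vehicle tumours 1 to 4 (V1 to V4, blue) and treated tumours 1 to 4 (S1 to S4, orange), as log2(signal + 16) or mean log2 value; each panel has its own scale. Shh is highest in S4, S1 and V3, as is the keratin score, whereas Boc is near 8.8 in all treated tumours.

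Markers of vessels and immune cells had higher mean values in treated tumours over all 8 samples, and less so or not at all without the 3 samples of high keratin scores. Over all 18193 genes, to be read beside the counts below, 8576 had a log2 fold change above 0 and 9617 below. The endothelial list had a median log2 fold change of 0.71 with 11 of 11 above 0, the macrophage list 0.71 with 9 of 9, and the T and NK cell list 0.67 with 9 of 9. These medians were 0.18, -0.0039 and 0.46 without the 3 samples. Their scores ranged in vehicle from 6.49 to 7.26, from 8.26 to 9.21 and from 4.62 to 5.14, and in treated tumours from 7.13 to 7.97, from 8.91 to 9.996 and from 5.28 to 5.62. All of these markers had a median signal of at least 10 except Cd4 and Cd5 of the T and NK cell list. The endothelial adhesion genes Pecam1 and Cdh5 stood at 0.84 ± 0.27 and 0.92 ± 0.33, the macrophage genes Adgre1 and Csf1r at 0.66 ± 0.22 and 0.71 ± 0.19, and the T cell receptor complex genes Cd3e and Cd3g at 0.62 ± 0.36 and 0.67 ± 0.17. In the same order they were at 0.28, 0.28, 0.24, 0.40, 0.35 and 0.46 without the 3 samples. None of these 6 genes passed the adjusted test in limma, with an adjusted p of at least 0.519. Of the basal and myoepithelial markers 8 of 9 were above 0 (median 0.58), with the keratin genes Krt5 at 0.40 ± 0.75 and Krt14 at 0.26 ± 0.87. That median was 0.28 without the 3 samples, and Krt5 and Krt14 turned to -0.77 and -1.16. Of the cell cycle genes 14 of 14 were below 0 (median -0.68), with Mki67 at -0.88 ± 0.42 and Top2a at -0.55 ± 0.35. The cell cycle median was -0.08 without the 3 samples, with Mki67 at -0.049 and Top2a at 0.17. The tumour epithelium markers were split, 4 above 0 and 6 below (median -0.07). The part of these cell types in the values of Boc, Cdon and the Gli genes was not tested. Only Boc was set beside a marker score, that of the fibroblasts, and that comparison cannot show how large their part was.

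Patterns across samples were compared as a description, over the 8 samples and among 6639 genes with a mean log2 value of at least 7, by Pearson's r, with no test. Every r includes the difference between the groups, and all genes share the same 8 arrays. The 5 genes nearest to Boc were Gstm5, Lamb1, Ntn1, Tef and Rapgef1, with r from 0.957 to 0.977 and log2 fold changes from 0.27 to 0.89. Gas1 came at rank 453, with r of 0.691. Nearest to Cdon were Fgfr1, Ano6, Septin9, Socs5 and Ptpn9, with r from 0.933 to 0.963, and Boc was at rank 21, with r of 0.912. Nearest to Gli2, by 1459211_at, were Fkbp1a, Gnai2, Arpc2, Sh3bgrl3 and Mbp, with r from 0.931 to 0.963. For Gli2, Ptch1 was at rank 278, with r of 0.731, and Boc at rank 1390, with r of 0.406. The values for Gli2 include vehicle tumour 4, at a signal of 1.62 by this probe. By 1446086_s_at that sample read 26.1, the highest of the vehicle group.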

How the data were processed

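RNA of 8 tumour samples was measured on 1 array each, and groups were taken from the sample titles. The authors deposited linear ratios. Software and normalisation: not given in the sources used here. From the values themselves, each signal had been divided by the median of its array and by the median of its probe, or by a constant where that median was below 10, with a lowest value of 0.01. Whole-number signals were recovered as the smallest that give the ratios, and gave back 45101 of 45101 probes within a relative 0.0001. In 5000 simulated probes 99.68% were exact, so a few can be off by a common factor. Signals were quantile normalised, 16 was added and log2 taken. After leaving out 64 control probes, limma 3.58.1 (R 4.3.3; lmFit, eBayes) was fitted on 45037 probes with Benjamini-Hochberg adjustment over all and a threshold of 0.05. It was tested on simulated data. Platform annotation gave 34945 probes 1 symbol, 932 several and 9160 none. A gene in a list is its probe of highest mean log2 value, of 18193 genes. List scores are means of log2 values.

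The members, the lists and the naming rule (all member probes, of 2 pathway lists the 3 genes of smallest unadjusted p each way and all ligands, the first 2 genes of each marker list where on the array, and the 5 genes most like Boc, Cdon and Gli2) were chosen with earlier results of these data known. Sufu, Cd4, Cd5, Sox10, S100b, Ngfr and Cdh19 were named after their values were seen. Between any pair of arrays at least 92.8% of probes differed. Alternatives were other scalings, pseudocounts of 4 and 64, log2 of the deposited ratios, a filter at a mean signal of 32, array weights, a replicate block, and leaving out samples. Promoters came from RefSeq (GRCm38.p6). Detection calls and scan dates were not used here.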

Additional observations from a re-analysis of the deposited data

Results flagged for a closer look

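In 48 groups of 4 values (24 member probes in 2 groups), 7 had an end value whose gap to the nearest value, relative to the range of the group, was above Dixon's 95% critical value. For normally distributed values chance flags about 1 in 20 groups, a rate that need not hold for the low and partly tied signals of dim probes. No share of flagged groups over all probes is given here, so 7 of 48 cannot be read as an excess. For Boc 1427516_a_at, treated tumour 4 was lowest at 424.6, with the others between 444 and 447. For Gli2 1459211_at, vehicle tumour 4 was lowest at 1.62, with the others between 24.6 and 31.1. The other 5 concern probes with a median signal under 10. In treated tumour 4, Gas1 1456322_at was highest at 12.4 and Ptch1 1450824_at highest at 1.25, where its other values were 1.12. In vehicle tumour 4, Hhip 1438083_at was highest at 14.5. Hhip 1455277_at was highest in vehicle tumour 2, at 7.0, and in treated tumour 2, at 2.38.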

How the results depend on the processing

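The small number of arrays and the low signals of Gli1, Gli2, Gli3 and Hhip limit these values. In all limma settings tried 0 member probes and 0 of all probes passed an adjusted p of 0.05. At 0.1 there were 0 member probes, and over all probes 1 with log2 of the deposited ratios and 0 in the other settings. The smallest adjusted p of a member was 0.267, without treated tumour 3. Of 24 single values, 14 kept their sign in all of up to 17 alternatives, among them both measured Boc probes (0.66 to 1.31), Cdon 1434957_at (0.51 to 1.19) and Ptch1 1428853_at (0.16 to 0.78). The median over genes moved by 0.12 with arrays scaled to one median and by 0.18 with log2 of the deposited ratios, so values there are to be read against that shift. The member probes at an unadjusted p under 0.05 in limma, all higher, numbered 4 to 7 without 1 sample. The count of 7 came without treated tumour 2, where 5.84% of all probes were higher at that p. Without treated tumour 4 the count was 4, against 3.02% of all probes. With log2 of the deposited ratios 4 member probes were higher, against 4.42% of all probes. In that setting 1 was lower, the dim Hhip 1455277_at at -1.21, where 1198 of 45037 probes were lower.

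The count of member probes whose groups do not overlap was 3, and 3 to 8 without 1 sample (5 on leaving out vehicle tumour 3, 4 higher and 1 lower, and 8 on leaving out treated tumour 2, 7 higher and 1 lower), and it was 6 on leaving out the 3 samples of high keratin scores. The share of all probes that separated upwards was 1.83% with all samples and 2.78% and 4.27% without those single samples. Boc minus the fibroblast score ranged from -0.062 to 0.37 without 1 sample. Boc minus Cdon ranged from 0.11 to 0.31 without 1 sample.

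Signs turned in 10 single values. Gas1 1456322_at was at 0.0043 with a pseudocount of 4, 0.11 with log2 of the deposited ratios, 0.088 with array weights, -0.17 to 0.17 without 1 sample and 0.0033 without the 3 samples. Gli3 1456067_at was at 0.025 with arrays scaled to one median, 0.0052 with a pseudocount of 4, 0.105 with log2 of the deposited ratios, 0.029 with array weights and -0.20 to 0.21 without 1 sample. Without 1 sample, Smo 1427049_s_at ranged from -0.022 to 0.25, Gli3 1450525_at from -0.19 to 0.067, Hhip 1421426_at from -0.26 to 0.016, Hhip 1438083_at from -0.25 to 0.033 and Boc 1427517_at from -0.013 to 0.29. Without the 3 samples, Smo 1427049_s_at was at -0.057, Smo 1427048_at at -0.082, Gli1 at -0.26, Gli2 1446086_s_at at -0.061 and Gli3 1450525_at at 0.0215. The cause was not tested.

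Without the 3 samples the median log2 fold change of lists was 0.16 for the 9 member genes (0.44 with all samples), -0.0016 for hedgehog targets, -0.57 for the ligands (0.28 with all samples), 0.18 for endothelial, -0.0039 for macrophage, 0.46 for T and NK cell markers and -0.08 for the cell cycle.

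Replicates are numbered 1 to 4 in both groups. Deviations of same-numbered samples correlated at 0.021, 0.108, -0.151 and -0.106, and 0 of 8 samples correlated best with their own number. These values gave no sign of pairing by number, but so few correlations cannot settle it. With the replicate block 0 probes were called, and Boc minus Cdon was 0.23 with an exact permutation p of 0.375. In that fit 4 member probes were higher at an unadjusted p under 0.05 instead of 5, against 4.94% of all probes.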

Other observations

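Skeletal muscle scores reached 10.62 in vehicle tumour 1 and 10.08 in treated tumour 2, against 4.96 in treated tumour 4, with a median log2 fold change of 0.19 over 9 markers (0.70 without the 3 samples of high keratin scores), Acta1 at 0.05 ± 1.85 and Ckm at 0.16 ± 1.53. Adipocyte scores were highest in treated tumour 2, at 8.57, and lowest in vehicle tumour 2, at 5.66, with a median of 0.31 over 6 markers, Adipoq at 0.45 ± 1.03. Smooth muscle and pericyte markers had a median of 0.39 over 7 (0.20 without the 3 samples), Rgs5 at 0.45 ± 0.34 and Cspg4 at 0.22 ± 0.24. Schwann cells express Dhh. The 4 genes measured of the nerve and Schwann cell list had a median log2 fold change of -0.25. Cdh19 stood at -0.75 ± 0.50 and Sox10 at -0.38 ± 0.21, while S100b and Ngfr were nearer 0, at -0.12 ± 0.31 and -0.03 ± 0.32. They were at unlike levels, as the mean vehicle signal was 2632 for Sox10, 70.3 for Cdh19, 50.2 for S100b and 19.3 for Ngfr. Whether Sox10, at that level, read nerve and Schwann cells or other cells was not tested, so the median need not describe nerve. The scores of the list ran from 7.13 to 7.32 in vehicle and from 6.55 to 7.35 in treated tumours. Without the 3 samples of high keratin scores the median was -0.061, and S100b and Cdh19 turned to 0.31 and 0.015. The part of nerve and Schwann cells in the Dhh values was not tested. Krt1 and Krt10, keratins of squamous epithelium, had mean signals of 281 ± 540.1 and 575 ± 924 for vehicle and 373 ± 434 and 548 ± 487 for treatment (SD, n = 4 each), and both were highest in vehicle tumour 3 and treated tumours 1 and 4.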
